A study of Mus musculus with 138 samples.

Results

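Zscan4d, Zscan4f, Tcstv1, Tcstv3 and Gm4340 are 5 genes of the mouse 2-cell stage, chosen by name from the feature column of the gene count tables, which held 25900 genes. All 5 were found in both tables. They were followed in single embryos of 5 groups, from 2 experiments on SMARCA5, a motor protein that slides nucleosomes along DNA. In the first experiment, embryos labelled Smarca5 +/- (maternal deletion: mothers lacking Smarca5 in the egg, mated with wild-type males, so that embryos are heterozygous) were set against embryos labelled Smarca5 +/+ (wild type). The sample titles of both groups also mention matKO females, so the titles do not separate the mothers. In the second experiment, called TrimAway, wild-type zygotes were injected to direct a protein to degradation through the ubiquitin ligase TRIM21. Its groups received an antibody against SMARCA5 (anti-SMARCA5) or control IgG, or were not injected (uninjected), and libraries were made no earlier than 24 hours after injection. A replicate number stands for 1 pool of embryos, which the study calls technical replicates. The spread between libraries is therefore the spread between single embryos of a few pools, and p-values measure only that spread.

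Zscan4 genes encode zinc finger proteins with a SCAN domain, are expressed in a brief burst in 2-cell embryos and in rare cells of embryonic stem cell cultures, and are known for their part in telomere maintenance. Tcstv1 and Tcstv3 are named for their variable expression at the 2-cell stage and are also known for telomere elongation in stem cells. Gm4340 is a predicted gene of the same expression window. All these genes lie in clusters of near-identical copies, and they are widely used as readouts of zygotic genome activation, the first wave of transcription from the embryo's own DNA.

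The count tables place Zscan4d (ENSMUSG00000090714) at chr7:11161374-11166182 on the minus strand and Zscan4f (ENSMUSG00000070828) at chr7:11397915-11402741 on the plus strand. Tcstv1 (ENSMUSG00000096284) lies at chr13:119893467-119894746 on the minus strand and Tcstv3 (ENSMUSG00000095821) at chr13:120317567-120318076 on the plus strand. Gm4340 (ENSMUSG00000090854) lies at chr10:104195397-104196203 on the plus strand, all in GRCm38. The coding sequences of Zscan4d and Zscan4f were identical at 1483 of 1518 positions (97.7%), and Zscan4f and its neighbour Zscan4c were identical at 99.6%. Tcstv1 and Tcstv3 were identical at 93.6% of aligned positions, gaps included. The stretches of 60 coding bases below were chosen because they hold several of the few differences by which a read can be assigned to 1 copy. Capitals mark positions at which the sequences of a set differ.
Zscan4d, chr7:11162351-11162410, minus strand: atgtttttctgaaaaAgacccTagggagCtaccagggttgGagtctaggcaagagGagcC
Zscan4f, chr7:11401700-11401759, plus strand: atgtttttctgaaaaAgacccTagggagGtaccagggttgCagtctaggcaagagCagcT
Zscan4c, chr7:11009507-11009566, plus strand: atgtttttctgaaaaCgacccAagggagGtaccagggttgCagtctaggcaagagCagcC
Tcstv1, chr13:119893642-119893701, minus strand: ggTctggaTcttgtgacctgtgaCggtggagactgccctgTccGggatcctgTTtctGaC
Tcstv3, chr13:120317960-120318019, plus strand: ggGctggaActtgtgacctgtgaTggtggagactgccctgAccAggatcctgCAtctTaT
The Zscan4 stretches differ at 6 positions and the Tcstv stretches at 9.

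How far reads can be told apart was measured on GENCODE transcripts of the same build, cut into windows of 50 bases. For Gm4340, 1240 of 1254 windows (98.9%) also occurred in a transcript of another gene. For Zscan4f the share was 86.8% (1699 of 1957 windows), with 74.3% found in Zscan4c alone. It was 49.6% for Zscan4d (1102 of 2223), 31.4% for Tcstv3 (229 of 730), and Tcstv1 shared 209 of 1397 windows. How the submitters treated reads that match several places is not given in the sources used here. A count of Gm4340 or Zscan4f may therefore hold reads of its copies or lack its own, and the members of 1 family are not independent measurements.

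The 100 bases upstream of the gene starts are shown because Zscan4d and Zscan4f share nearly all of them. RefSeq promoter windows on GRCm38.p6 were matched for 3 of the 5 genes. In the first pair, capitals mark the 4 positions that differ (96.0% identity). The Gm4340 stretch ends 1355 bases before the gene as the count tables place it, and its capitals mark the letters GGATTA.
Zscan4d, chr7:11166183-11166282, minus strand: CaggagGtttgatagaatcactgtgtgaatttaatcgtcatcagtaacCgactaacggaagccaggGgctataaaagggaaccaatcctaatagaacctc
Zscan4f, chr7:11397815-11397914, plus strand: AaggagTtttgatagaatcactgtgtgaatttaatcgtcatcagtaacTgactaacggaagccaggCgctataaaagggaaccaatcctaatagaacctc
Gm4340, chr10:104193942-104194041, plus strand: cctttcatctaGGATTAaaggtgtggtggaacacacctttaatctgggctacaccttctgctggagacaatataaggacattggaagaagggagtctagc
The letters TATAAA, searched on both strands, were present in the windows of Zscan4d, Zscan4f and Zscan4c and in 5.56% of 32851 windows of the same length. GGATTA was present for Gm4340 and in 2.3% of windows. These are letter matches only.

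After libraries under 100000 counts were left out, 116 of 135 embryo libraries remained, with totals from 109007 to 12004992 counts (median 1469197). They were 22 wild-type, 28 maternal deletion, 15 uninjected, 20 IgG and 31 anti-SMARCA5 embryos. Smarca5 itself was at 153 to 794 CPM (counts scaled to library size with TMM factors) in wild type (median 362) and 3.31 to 322 in maternal deletion (median 94.4). In TrimAway, which removes protein, its mRNA overlapped across groups (median 454 in uninjected, 617 in IgG and 345 in anti-SMARCA5). The medians lay further apart in replicate 3, at 447 in uninjected, 641 in IgG and 162 in anti-SMARCA5. In replicate 1 they were 486, 604 and 382. In replicate 2 of the first experiment, 3 libraries stood apart from others with their label in Smarca5 and in Gdf9, an egg transcript. The library labelled maternal deletion in plate well A04 had Smarca5 at 319 and Gdf9 at 22.4 CPM, against a group median of 4757 for Gdf9. The libraries labelled wild type in wells G05 and H05 had Smarca5 at 153 and 172 and Gdf9 at 627 and 287 CPM, against a group median of 52.2 for Gdf9. Trim21 had over 3 counts in 30 of 31 anti-SMARCA5 embryos and 8 of 10 IgG embryos of replicate 3, and 0 counts in all 10 IgG embryos of replicate 1. The mean log2(CPM + 1) of 19 maternal transcripts was 8.12 ± 0.79 (SD, n = 28) in maternal deletion against 5.28 ± 1.08 (SD, n = 22) in wild type. Markers of cumulus cells, which can stick to embryos, were scarce: the summed CPM of 13 markers ran from 0 to 41.9 in wild type, 0 to 79.8 in maternal deletion, 0.819 to 36.5 in uninjected, 0 to 63.0 in IgG and 0.494 to 178 in anti-SMARCA5. Of the 13 markers, 6 were at 0 in every wild-type library, 3 in every maternal deletion library and 5 in every uninjected library. In IgG 2 of 13 were at 0 in every library, and in anti-SMARCA5 0 of 13 were. Inha and Pgr were among those at 0 in wild type, maternal deletion and uninjected, and Lhcgr among those at 0 in wild type, uninjected and IgG.

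The 5 genes varied widely from embryo to embryo within a group. All 5 had over 3 counts in 11 of 22 wild-type embryos, 8 of 28 maternal deletion embryos, 7 of 15 uninjected embryos, 12 of 20 IgG embryos and 19 of 31 anti-SMARCA5 embryos. None of the 5 had over 3 counts in 2 wild-type embryos, 1 maternal deletion embryo and 1 anti-SMARCA5 embryo. Depth also differed between groups, and 3 counts are a higher CPM in a shallower library. The median total was 545264.5 counts in wild type and 1618485.5 in maternal deletion. It was 1460667 in uninjected, 1708008 in IgG and 1481635 in anti-SMARCA5 embryos. The share with all 5 differed between pools: it was 7 of 8 wild-type embryos in replicate 1 and 4 of 14 in replicate 2, and 13 of 17 anti-SMARCA5 embryos in replicate 1 and 1 of 7 in replicate 3. A level is a share of the RNA of a whole embryo, so fewer expressing blastomeres and less RNA per blastomere cannot be told apart.

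**Figure D1:**
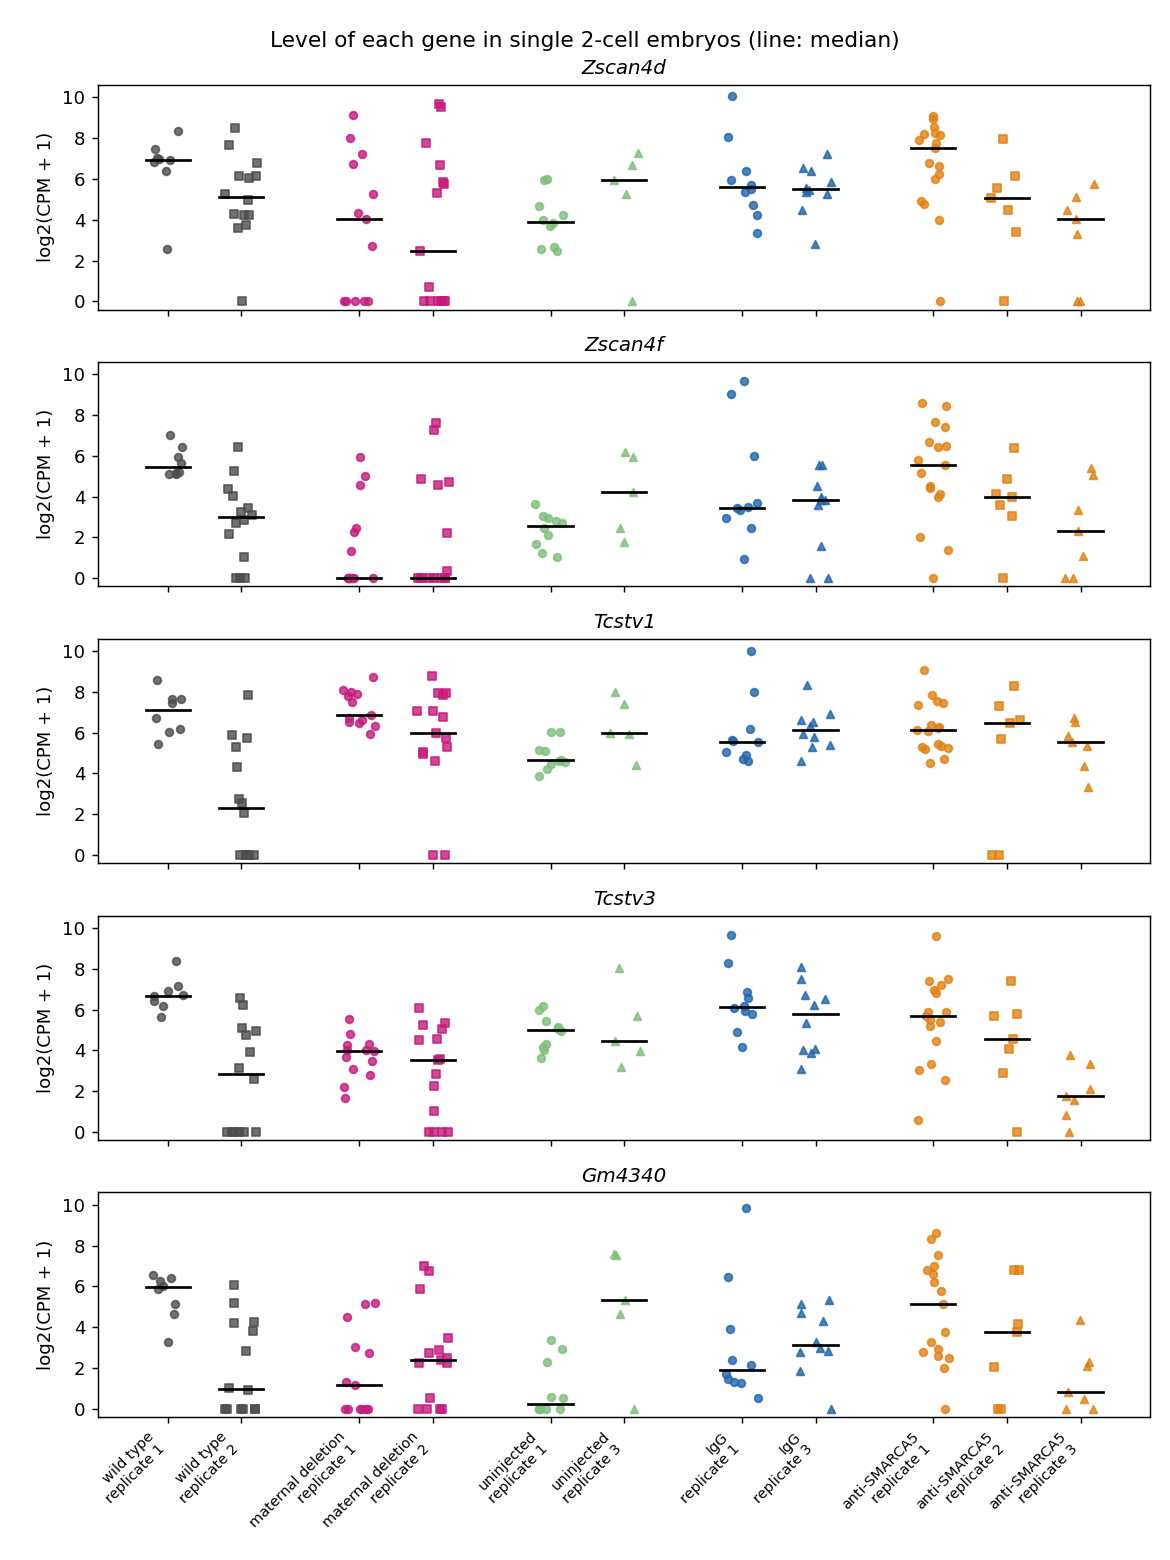
Level of each gene as log2(CPM + 1), 1 point per embryo, by group and replicate number, with a line at the median. Several groups span from 0 or near 0 to above 6, wild-type replicate 1 lies above wild-type replicate 2 for each gene by its median, and Zscan4d and Zscan4f hold a row of maternal deletion embryos at 0.

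Zscan4d ran from 0 to 355 CPM in wild type (median 69.8) and from 0 to 798 in maternal deletion (median 10.5). In TrimAway it ran from 0 to 153 in uninjected (median 17.7), from 5.95 to 1070 in IgG (median 44.9) and from 0 to 533 in anti-SMARCA5 embryos (median 53.6). The ranges overlapped in every pair of groups, and the highest maternal deletion embryos lay above the highest wild-type embryo. Zscan4f ran from 0 to 130 CPM in wild type (median 17.8) and from 0 to 194 in maternal deletion, where the median was 0. It ran from 1.07 to 71.0 in uninjected (median 5.55), from 0 to 800 in IgG (median 11.4) and from 0 to 387 in anti-SMARCA5 embryos (median 20.3). By its median, Zscan4d stood in the order wild type, anti-SMARCA5, IgG, uninjected and maternal deletion. Zscan4f stood in the order anti-SMARCA5, wild type, IgG, uninjected and maternal deletion. Medians of different experiments were not tested against each other.

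Tcstv1 had a different order. It ran from 0 to 386 CPM in wild type (median 40.4) and from 0 to 441 in maternal deletion, whose median of 105 was the highest of the 5 groups. It ran from 13.8 to 255 in uninjected (median 33.5), from 23.1 to 1025 in IgG (median 51.4) and from 0 to 533 in anti-SMARCA5 embryos (median 67.0). Tcstv3, its close relative, ran from 0 to 337 CPM in wild type (median 31.2) and from 0 to 66.4 in maternal deletion (median 11.3). It ran from 7.99 to 258 in uninjected (median 30.4), from 7.51 to 794 in IgG (median 69.0) and from 0 to 769 in anti-SMARCA5 embryos (median 22.2). Tcstv3 was thus lowest by median in the group in which Tcstv1 was highest. Both were above 3 counts in every uninjected and IgG embryo.

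Gm4340 ran from 0 to 93.1 CPM in wild type (median 15.1), from 0 to 128 in maternal deletion (median 3.78), from 0 to 188 in uninjected (median 0.512), from 0 to 930 in IgG (median 6.09) and from 0 to 387 in anti-SMARCA5 embryos (median 8.72). The uninjected median hides a split by pool: it was 0.215 in the 10 embryos of replicate 1 and 38.8 in the 5 of replicate 3. One IgG embryo of replicate 1, in well A10, held Zscan4d at 1070, Zscan4f at 515, Tcstv1 at 1025, Tcstv3 at 794 and Gm4340 at 930 CPM. It was the highest IgG embryo for all of them except Zscan4f.

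**Figure D2:**
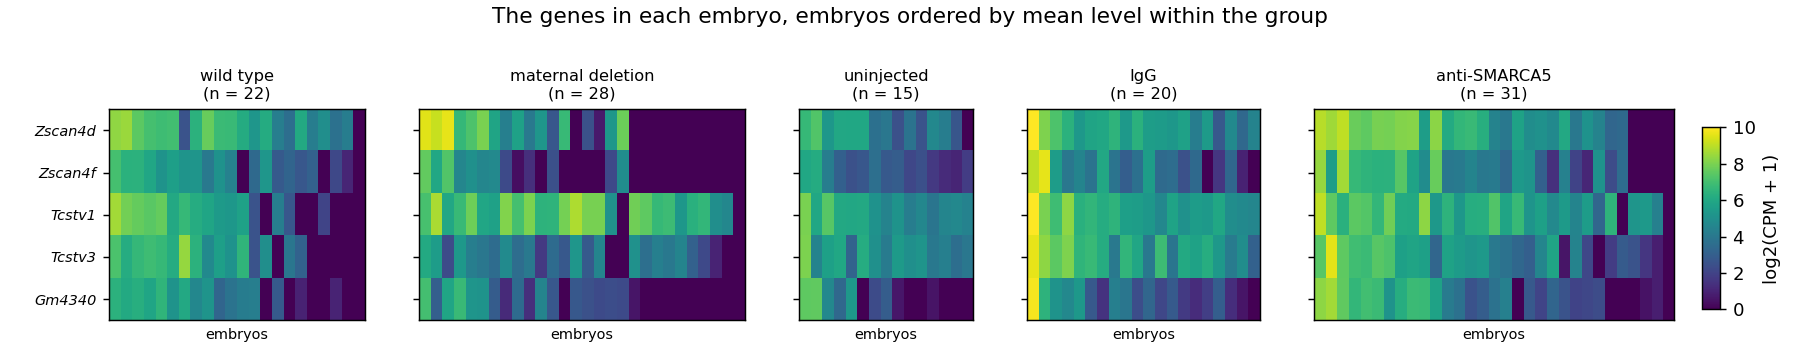
Each column is 1 embryo, ordered within its group by the mean of the 5 genes, and colour gives log2(CPM + 1). In IgG embryos the 5 rows largely fade together. The maternal deletion panel holds embryos with Tcstv1 present and both Zscan4 genes at 0, and the anti-SMARCA5 panel holds some as well.

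The maternal deletion comparison asks whether 2-cell genes reach wild-type levels in embryos from eggs without SMARCA5. Over all embryos, 1 of the 5 genes changed, against 56.6% of the 8518 genes tested in the same comparison. Tcstv3 fell by 1.81 on the log2 scale (SE 0.66, edgeR adjusted p = 0.0169, n = 28 and 22). The other genes did not pass the test: the log2 fold change was 0.27 (SE 0.75, edgeR adjusted p = 0.766) for Zscan4d and -0.53 (SE 0.80, edgeR adjusted p = 0.585) for Zscan4f. For Tcstv1 it was 0.95 (SE 0.62, edgeR adjusted p = 0.184) and for Gm4340 -0.72 (SE 0.76, edgeR adjusted p = 0.424). Without the 3 libraries that stood apart, Tcstv3 stood at -1.77 (edgeR adjusted p = 0.020). With a block for the replicate number, which called 57.6% of genes, Tcstv3 stood at -1.41 (edgeR adjusted p = 0.0693) and none of the 5 passed. With a minimum of 500000 counts per library Tcstv3 stood at -1.04 (edgeR adjusted p = 0.305).

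The 2 pools of this experiment differed. Within replicate 1 (13 and 8 embryos), 3 of the 5 genes were called, all lower in maternal deletion, against 43.8% of 6389 genes. Tcstv3 fell by 3.05 (SE 0.44, edgeR adjusted p = 5.76e-06), from 48.8 to 337 CPM in wild type (median 102) to 2.20 to 45.2 in maternal deletion (median 14.5). The groups did not overlap. Gm4340 fell by 2.64 (SE 0.76, edgeR adjusted p = 0.00634) and Zscan4f fell by 2.48 (SE 0.79, edgeR adjusted p = 0.0115). Every wild-type embryo of replicate 1 had Zscan4f at 33.5 CPM or more, whereas 7 of 13 maternal deletion embryos had 0 counts. Tcstv1, at 42.1 to 386 CPM (median 139) in wild type and 60.1 to 427 (median 115) in maternal deletion, showed a log2 change of 0.11 (SE 0.40, edgeR adjusted p = 0.839), and Zscan4d one of -0.63 (SE 0.88, edgeR adjusted p = 0.583).

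Within replicate 2 (15 and 14 embryos), where 39.9% of 9730 genes were called, none of the 5 was. Tcstv3 had a log2 change of -0.12 (SE 1.05, edgeR adjusted p = 0.933) and Tcstv1 one of 2.06 (SE 0.98, edgeR adjusted p = 0.0882). Zscan4d, Zscan4f and Gm4340 stood at 0.98, 1.11 and 1.07. The difference between the pools in the effect of the deletion was called for none of the 5 genes and for 0.763% of genes, with the lowest edgeR adjusted p of the 5 at 0.206, for Gm4340. Wild-type embryos themselves differed between pools: in a comparison added after the values were seen, replicate 2 was lower than replicate 1 for Tcstv3 (-2.70, edgeR adjusted p = 0.0184), Gm4340 (-2.27, edgeR adjusted p = 0.0462) and Zscan4f (-1.98, edgeR adjusted p = 0.0448), against 38.5% of genes called. The mean log2(CPM + 1) of maternal transcripts was 6.05 ± 0.54 (SD, n = 8) in wild-type replicate 1 and 4.84 ± 1.07 (SD, n = 14) in wild-type replicate 2. These pools were also sequenced on different lanes, and pool and lane cannot be told apart.

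**Figure D3:**
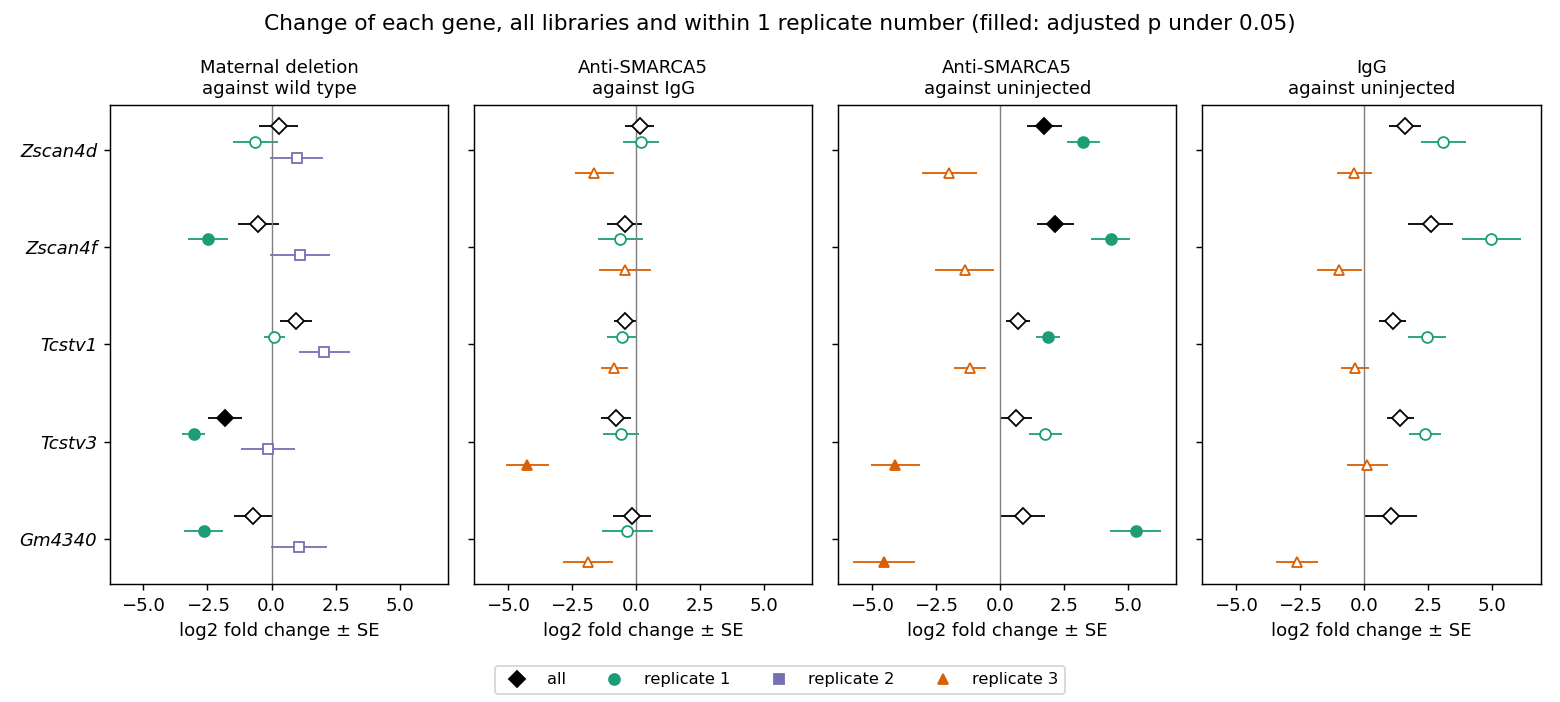
Log2 fold change ± SE of each gene (edgeR) in 4 comparisons, over all embryos (diamonds) and within 1 replicate number (circles, squares and triangles), filled where the adjusted p is under 0.05. In the maternal deletion panel 3 genes are filled within replicate 1 and none within replicate 2, and in the panel of anti-SMARCA5 against uninjected the replicates lie on opposite sides of 0.

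The number of embryos without a detectable transcript was counted as a second description, also added after the values were seen. At most 3 counts of Zscan4d were found in 12 of 28 maternal deletion embryos and 3 of 22 wild-type embryos, and of Zscan4f in 18 and 7. For Tcstv1 the order was opposite, with 2 of 28 maternal deletion and 8 of 22 wild-type embryos. None of these passed 2-sided Fisher's exact tests adjusted over the 20 tests of 5 genes in 4 comparisons (lowest adjusted p = 0.289). These counts were not adjusted for depth, which was lower by median in wild type. At 0 counts, Zscan4d was found in 11 of 28 and 1 of 22 embryos and Zscan4f in 15 and 3, and neither passed (Fisher's exact test, adjusted p = 0.0671 for each). With every library also thinned at random to 100000 counts, Zscan4d was at 0 counts in 13 of 28 maternal deletion embryos and 1 of 22 wild-type embryos (Fisher's exact test, adjusted p = 0.0239). Zscan4f was then at 0 in 20 and 6 (Fisher's exact test, adjusted p = 0.0389). The spread of these thinned counts over repeated random draws is not given. These tests pool the replicate numbers. Within them, in the thinned libraries, Zscan4d was at 0 in 6 of 13 against 0 of 8 embryos of replicate 1 and 7 of 15 against 1 of 14 of replicate 2, and neither passed over 40 such tests (Fisher's exact test, adjusted p = 0.201 for each). Zscan4f was at 0 in 10 of 13 against 0 of 8 in replicate 1 (Fisher's exact test, adjusted p = 0.0206) and in 10 of 15 against 6 of 14 in replicate 2 (Fisher's exact test, adjusted p = 0.641). A count of 0 still allowed up to 0.448 to 10.8 CPM of Zscan4d in the maternal deletion libraries concerned. The totals of these libraries ran from 264566 to 7236695 counts.

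Tcstv1 and Tcstv3 came apart in maternal deletion embryos. The log2 ratio of Tcstv3 to Tcstv1, each as CPM + 1, averaged -0.04 ± 1.83 (SD, n = 22) in wild type and -3.10 ± 1.45 (SD, n = 28) in maternal deletion. It was below 0 in 9 of 22 wild-type and 26 of 28 maternal deletion embryos. Averaged over replicate numbers, the difference was -3.05, an 8.26-fold lower ratio (2-sided permutation test within replicate numbers, p = 1e-05, the smallest that the permutations can give, adjusted over 4 comparisons 4e-05). It was -3.31 in replicate 1 and -2.78 in replicate 2, and -3.23 without the 3 libraries that stood apart. In replicate 1 every maternal deletion embryo had a ratio between -5.14 and -1.97. The ratio was examined after the values were seen, and it depends on how reads shared by the Tcstv genes were assigned, whose part was not tested.

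**Figure D4:**
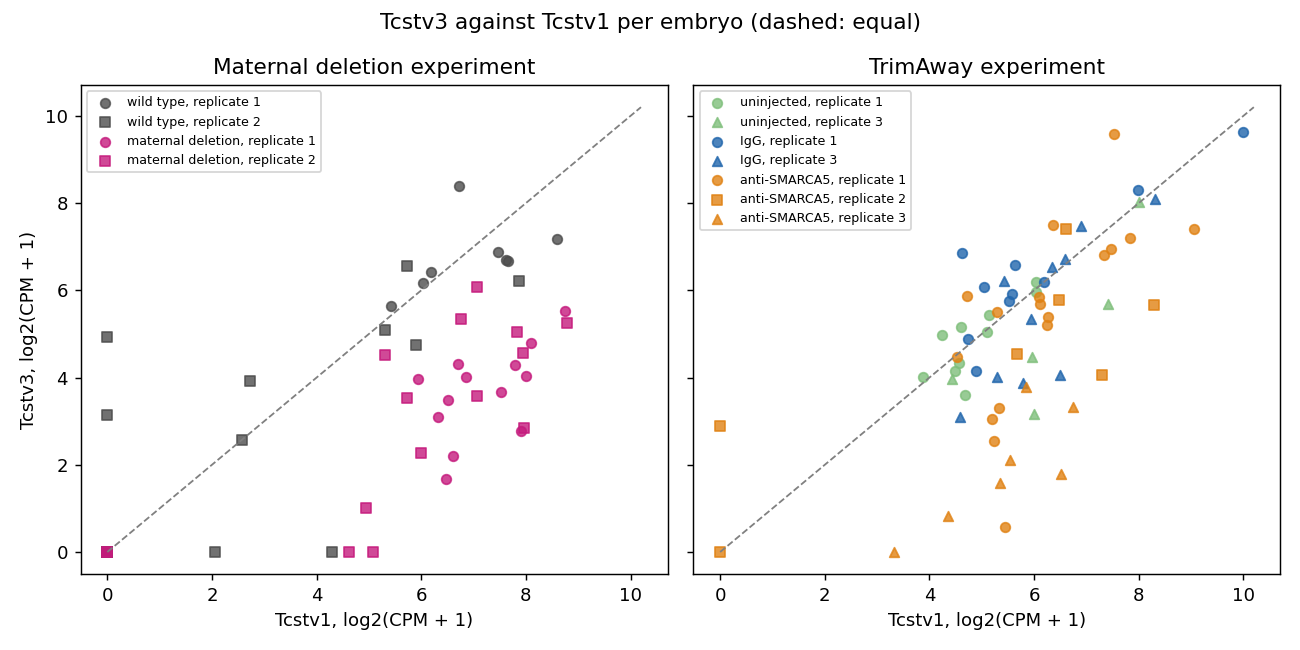
Tcstv3 against Tcstv1 as log2(CPM + 1), 1 point per embryo, with a dashed line where they are equal. In the left panel 26 of 28 maternal deletion embryos lie below the line, and in the right panel all 7 anti-SMARCA5 embryos of replicate 3 do.

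In TrimAway the ratio was also lower with the antibody against SMARCA5. It averaged -0.43 ± 0.96 (SD, n = 15) in uninjected, -0.11 ± 1.09 (SD, n = 20) in IgG and -1.34 ± 1.94 (SD, n = 31) in anti-SMARCA5 embryos. Differences were averaged over the shared replicate numbers 1 and 3 with equal weight. The 7 anti-SMARCA5 embryos of replicate 2, with a mean ratio of -0.57, therefore did not enter. Against IgG the difference was -2.01 (4.04-fold, permutation p = 3e-05, adjusted 6e-05), with -1.19 in replicate 1 and -2.84 in replicate 3. Against uninjected embryos it was -1.48 (permutation p = 0.00134, adjusted 0.00179). Replicate 3 carried most of it: without that pool the differences were -1.19 (permutation p = 0.0389) and -0.78 (permutation p = 0.156). IgG and uninjected embryos differed by 0.54 (permutation p = 0.12). These comparisons share libraries, so they are not separate tests of the antibody.

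The effect of the antibody on the single genes depended on the control and the pool. IgG embryos were also injected, but the 10 of replicate 1 had Trim21 at 0 counts. Against IgG, none of the 5 genes passed over all embryos, against 3.03% of 10447 genes. The log2 fold changes were 0.15 (SE 0.57, edgeR adjusted p = 0.873) for Zscan4d, -0.43 (SE 0.68, edgeR adjusted p = 0.701) for Zscan4f and -0.40 (SE 0.45, edgeR adjusted p = 0.566) for Tcstv1. They were -0.77 (SE 0.57, edgeR adjusted p = 0.368) for Tcstv3 and -0.13 (SE 0.75, edgeR adjusted p = 0.919) for Gm4340. With a block for the replicate number, which called 25.8% of genes, Tcstv3 passed at -1.80 (SE 0.70, edgeR adjusted p = 0.0486). Without the IgG embryo of well A10, left out after its values were seen, Gm4340 moved to 2.05 (edgeR adjusted p = 0.0682) and Zscan4d to 1.06 (edgeR adjusted p = 0.186). Tcstv1 then stood at 0.32 (edgeR adjusted p = 0.62) and Zscan4f at 0.093. With well A10 kept, DESeq2 gave 2.12 for Gm4340 (DESeq2 adjusted p = 0.0307).

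Within replicate 1 (17 and 10 embryos) none of the 5 passed and 0.857% of genes did. Trim21 was at 0 counts in all IgG embryos of that pool. Within replicate 3 (7 and 10 embryos), where 16.5% of genes were called, Tcstv3 was lower with the antibody, at a log2 change of -4.22 (SE 0.85, edgeR adjusted p = 0.00736). The 7 anti-SMARCA5 embryos held it at 0, 0.775, 1.98, 2.43, 3.32, 9.06 and 12.7 CPM, and the 10 IgG embryos at 7.51 to 270 (median 56.6). The ranges overlapped, with 2 antibody embryos above the lowest IgG embryo. The change in replicate 3 minus that in replicate 1 was -3.60 for Tcstv3 (SE 1.19, edgeR adjusted p = 0.143), and this difference was called for none of the 5 genes and 0.366% of genes. The deletion effect minus the effect of anti-SMARCA5 against IgG was likewise called for none of the 5 genes, against 19.2% of genes, with -1.07 (SE 0.88, edgeR adjusted p = 0.408) for Tcstv3.

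Against uninjected embryos, 2 of the 5 genes were higher with the antibody, where 27.9% of 10750 genes were called. Zscan4f rose by 2.16 (SE 0.72, edgeR adjusted p = 0.0234) and Zscan4d by 1.74 (SE 0.67, edgeR adjusted p = 0.0447). With the replicate block, which called 31.9% of genes, Zscan4f stood at 2.45 (edgeR adjusted p = 0.0487) and Zscan4d at 1.57 (edgeR adjusted p = 0.161). Scaled by total counts alone, neither passed (edgeR adjusted p = 0.0712 and 0.123). Without replicate 1 they stood at -0.84 and -0.85 (edgeR adjusted p = 0.613 and 0.621), and without replicate 3 at 3.93 and 2.90.

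Pools 1 and 3 gave opposite results in this comparison. Within replicate 1, where 15.6% of genes were called, 4 of the 5 genes rose: Gm4340 by 5.29 (SE 0.99, edgeR adjusted p = 0.00152), Zscan4f by 4.33 (SE 0.77, edgeR adjusted p = 0.00102), Zscan4d by 3.26 (SE 0.65, edgeR adjusted p = 0.00201) and Tcstv1 by 1.88 (SE 0.46, edgeR adjusted p = 0.00892). Tcstv3 stood at 1.78 (edgeR adjusted p = 0.0559). Zscan4d was at 4.61 to 63.0 CPM (median 13.9) in the 10 uninjected embryos of that pool and at 0 to 533 (median 184) in the 17 anti-SMARCA5 embryos. Within replicate 3, where 26.7% of genes were called, Gm4340 fell by 4.51 (SE 1.20, edgeR adjusted p = 0.0155) and Tcstv3 fell by 4.08 (SE 0.96, edgeR adjusted p = 0.00919). Gm4340 was at 0, 24.2, 38.8, 183 and 188 CPM in the 5 uninjected embryos and at 0, 0, 0.396, 0.775, 3.32, 3.98 and 19.5 in the 7 anti-SMARCA5 embryos. Apart from the uninjected embryo at 0, every uninjected embryo was above every antibody embryo.

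The difference between the pools was then tested as an interaction, in a comparison added after the values were seen. The change in replicate 3 minus that in replicate 1 was called for all 5 genes, against 12.6% of genes. It was -9.75 for Gm4340 (SE 1.68, edgeR adjusted p = 0.000501), -5.80 for Tcstv3 (SE 1.22, edgeR adjusted p = 0.0025), -5.62 for Zscan4f (SE 1.32, edgeR adjusted p = 0.00558), -5.17 for Zscan4d (SE 1.19, edgeR adjusted p = 0.00495) and -3.00 for Tcstv1 (SE 0.80, edgeR adjusted p = 0.0126). Both arms differed between pools. Uninjected embryos of replicate 3 were higher than those of replicate 1 for Gm4340 (5.34, edgeR adjusted p = 0.031), Zscan4f (2.75, edgeR adjusted p = 0.0465) and Tcstv1 (1.93, edgeR adjusted p = 0.0459), against 0.658% of genes called. Anti-SMARCA5 embryos of replicate 3 were lower than those of replicate 1 for 4 of the 5 genes, by -4.63 for Tcstv3 (edgeR adjusted p = 0.00221) to -2.91 for Zscan4f (edgeR adjusted p = 0.0365), against 26.0% of genes. The maternal transcript level of anti-SMARCA5 embryos went the other way: it was 6.08 ± 0.40 (SD, n = 17) in replicate 1 and 6.88 ± 0.67 (SD, n = 7) in replicate 3. Its part in the result was not tested.

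IgG against uninjected embryos set injected against not injected embryos, with Trim21 at 0 counts in the 10 IgG embryos of replicate 1. None of the 5 genes passed, and 0.0% of 9915 genes did with edgeR, with 1440 at an unadjusted p under 0.05 and 207 called by DESeq2. The estimates were positive for all 5 genes, from 1.06 (SE 1.02, edgeR adjusted p = 0.651) for Gm4340 to 2.61 (SE 0.89, edgeR adjusted p = 0.177) for Zscan4f. Within replicate 1 the estimate was 4.97 (SE 1.15, edgeR adjusted p = 0.121) for Zscan4f and 3.10 (SE 0.87, edgeR adjusted p = 0.195) for Zscan4d. Within replicate 3 the estimates were -0.96 for Zscan4f, -0.37 for Zscan4d, -0.36 for Tcstv1 and -2.61 for Gm4340 (edgeR adjusted p = 0.694, 0.855, 0.827 and 0.488), and 0.13 for Tcstv3. Without the IgG embryo of well A10, Gm4340 stood at -1.18, Zscan4d at 0.67, Tcstv1 at 0.38 and Tcstv3 at 0.87. DESeq2 gave 0.040 for Zscan4f, 0.61 for Zscan4d and 0.32 for Tcstv1. The sign of the estimate thus differed between pools for Zscan4f, Zscan4d and Tcstv1, and Gm4340 did not pass the filter within replicate 1.

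By the test used, all pairs of the genes varied together across embryos in IgG and anti-SMARCA5, and fewer pairs did in the other groups. Correlations of log2(CPM + 1), centred on the replicate number, were computed for 10 pairs in 5 groups. Of these 50, 35 passed a 2-sided permutation test at an adjusted p under 0.05, and the median Pearson r was 0.645. In IgG and in anti-SMARCA5 embryos all 10 pairs passed, with r from 0.578 to 0.892 and from 0.484 to 0.875. In wild type 7 pairs passed, in maternal deletion 4 and in uninjected embryos 4. The count of pairs that pass also depends on group size. For pairs of different families the median r was 0.6325 in uninjected (n = 15) and 0.655 in anti-SMARCA5 embryos (n = 31). It was 0.542 in wild type, 0.2475 in maternal deletion and 0.7935 in IgG. Zscan4d with Gm4340 had r = 0.874, 0.819 and 0.266 within anti-SMARCA5 replicates 1, 2 and 3. Zscan4f with Tcstv1 had r = 0.636, 0.699 and 0.0781 in the same pools. In IgG, Zscan4f with Tcstv3 had r = 0.82 within replicate 1 and 0.295 within replicate 3. Without the 2 farthest IgG embryos that pair had r = 0.352. In maternal deletion, Zscan4d followed Zscan4f (r = 0.859, rho = 0.863, permutation adjusted p = 7.14e-05 and 8.33e-05) and Gm4340 (r = 0.795, rho = 0.802, permutation adjusted p = 7.14e-05 and 8.33e-05, r = 0.734 without the 2 farthest embryos). Tcstv1 followed Tcstv3 (r = 0.726, rho = 0.698, permutation adjusted p = 0.000208 and 0.000885). The 4 pairs of a Zscan4 gene with a Tcstv gene had r from -0.02 to 0.25 in that group (Zscan4d with Tcstv1: r = 0.0381, rho = 0.0893, permutation adjusted p = 0.874 and 0.675). Its pools differed: the same 4 pairs had r from 0.292 to 0.643 within replicate 1 and from -0.0956 to 0.137 within replicate 2. In wild type Zscan4d with Tcstv1 had r = 0.584 and rho = 0.656 (permutation adjusted p = 0.00943 and 0.00285). That pair had r = 0.347 within wild-type replicate 1 and 0.65 within wild-type replicate 2. The difference of correlations between groups was not tested. In single embryos, Zscan4d at 0 counts with Tcstv1 above 3 counts was found in 10 of 28 maternal deletion embryos and 0 of 22 wild-type embryos, and Zscan4d above 3 with Tcstv1 at 0 in 1 and 5. In TrimAway the first state was found in 3 of 31 anti-SMARCA5, 1 of 15 uninjected and 0 of 20 IgG embryos, and the second in 1, 0 and 0.

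**Figure D5:**
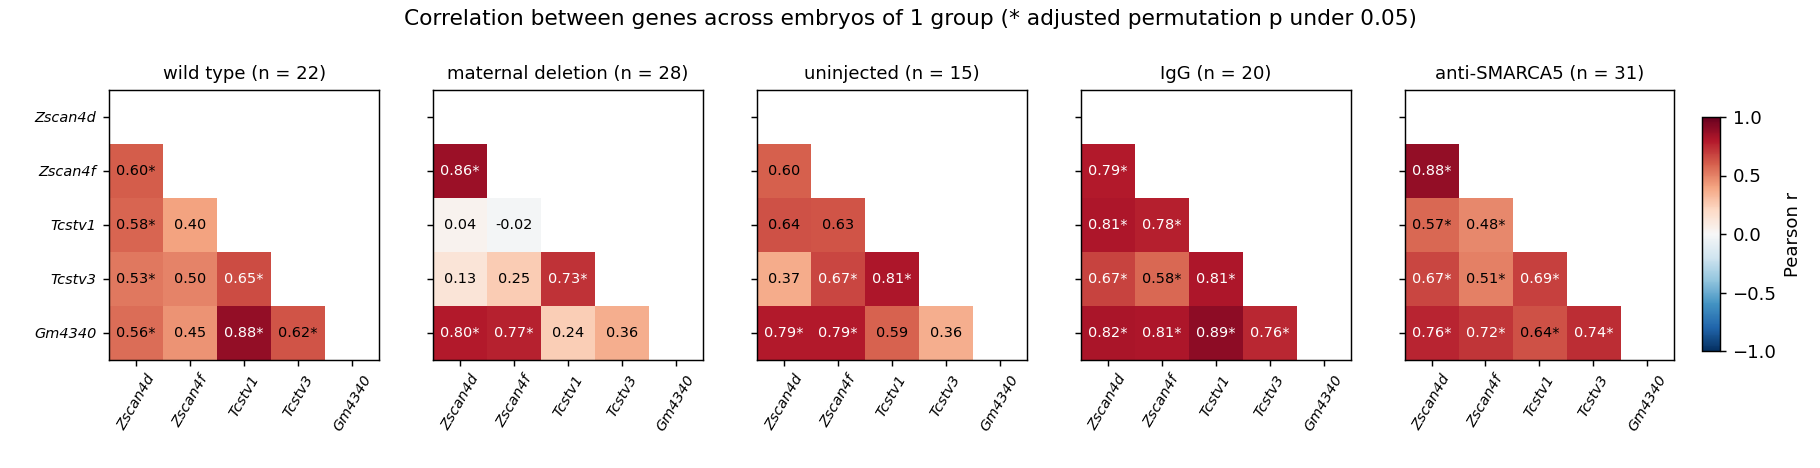
Pearson r between genes across the embryos of each group, with values centred on the replicate number and a star where the adjusted permutation p is under 0.05. All 10 cells carry a star in IgG and anti-SMARCA5, and in maternal deletion the 4 cells that pair Zscan4 with Tcstv genes lie between -0.02 and 0.25.

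The mean level of the 5 genes in an embryo followed that of the other 2-cell genes in every group (r from 0.867 in wild type to 0.921 in anti-SMARCA5, 5 tests, permutation adjusted p at most 0.00127). With maternal transcripts it went along in wild type (r = 0.829, rho = 0.777, permutation adjusted p = 6e-05 and 0.00042, r = 0.655 without the 2 farthest embryos) and not detectably in maternal deletion (r = -0.171, rho = -0.194, permutation adjusted p = 0.528 and 0.411). This relation also did not pass in the TrimAway controls. There r was 0.649 in uninjected (permutation adjusted p = 0.0828) and -0.0733 in IgG embryos (permutation adjusted p = 0.864). The difference of these correlations between groups was not tested. The mean level of the 5 genes passed no test against total counts in any group (permutation adjusted p from 0.158 to 0.987). The pools of maternal deletion differed here: r with total counts was 0.841 within replicate 1 and 0.0557 within replicate 2. With maternal transcripts r was -0.631 within replicate 1 of maternal deletion and 0.00544 within replicate 2. These values within single pools were not tested. The adjustment here was over the 15 relations of this level.

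The genes whose levels were most like the mean of the 5 were partly further Tcstv relatives. Across the 50 embryos of the first experiment, centred on group and replicate, the highest Pearson r among 6829 genes was 0.801 for AC238940.1, then 0.764 for Gm2016, 0.753 for Gm2022, 0.745 for Fundc1 and 0.743 for Gm5662. Across the 66 TrimAway embryos and 9014 genes it was 0.861 for AC238940.3, 0.86 for AF067061, 0.859 for Tdpoz3, 0.854 for Tmem92 and 0.839 for AC231112.2. AC238940.1, AC238940.3, AF067061 and AC231112.2 lie on chromosome 13 near the Tcstv genes, and their coding sequences were 93.6% to 96.3% identical to Tcstv1 and 92.6% to 94.7% identical to Tcstv3. Each held 3.58% to 11.8% of the 50-base windows of Tcstv1 and 2.74% to 19.0% of those of Tcstv3, and both genes enter the mean. These relatives are therefore not independent of the mean or of Tcstv3, and the part of shared reads was not tested. Within replicate 1 of the deletion experiment AC238940.1 (-2.01, edgeR adjusted p = 0.0118), AC238940.3 (-2.36, edgeR adjusted p = 0.00832) and AF067061 (-3.34, edgeR adjusted p = 0.00193) were lower, as Tcstv3 was. Over all embryos AC238940.1 stood at -1.34 (edgeR adjusted p = 0.0581) and AC238940.3 at -0.57 (edgeR adjusted p = 0.533). Within replicate 2 AC238940.1 stood at -0.53 (edgeR adjusted p = 0.652) and AC238940.3 at 1.63 (edgeR adjusted p = 0.242). AF067061 was tested in neither of these. BC147527, another relative on that chromosome picked after its values were seen, was lower over all embryos (-2.61, edgeR adjusted p = 0.00315) and within replicate 1 (-3.85, edgeR adjusted p = 7.9e-06). Within replicate 2 BC147527 stood at -1.17 (edgeR adjusted p = 0.433).

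Other copies had low medians and wide ranges. Zscan4c ran from 0 to 58.6 CPM in wild type (median 5.59, over 3 counts in 12 of 22 embryos) and from 0 to 226 in maternal deletion (median 0.0747, 11 of 28). It ran from 0 to 50.5 in uninjected (median 1.62, 8 of 15), from 0 to 229 in IgG (median 8.36, 15 of 20) and from 0 to 125 in anti-SMARCA5 embryos (median 11.7, 21 of 31). Zscan4b and Zscan4e had medians of at most 6.32 CPM in every group and reached 144 and 150 CPM in maternal deletion. Gm6763 and Gm8766, which neighbour Gm4340 and were 98.5% identical to it with gaps, had at most 3 counts in all 116 embryos.

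Of a list of 45 other 2-cell genes, 32 were in the tables, and 31 of them remained after Gm6763 was set aside as a copy of Gm4340. Of these 31, 18 were tested in the deletion comparison, where 10 fell and 1 rose (median log2 fold change -1.78, against 0.18 over all genes). The share called, 11 of 18, was near the 56.6% of all genes called there. With the replicate block 8 of 18 fell and 1 rose, beside 57.6% of genes called. Ubtfl1, a relative of the nucleolar factor UBTF, fell by 2.82 (SE 0.70, edgeR adjusted p = 0.00064). Tdpoz1 and Tdpoz4, which encode proteins with TRAF and BTB/POZ domains, fell by 2.48 and 2.45. Within replicate 1, 17 of 21 fell and none rose, beside 43.8% of genes called, and within replicate 2, 1 of 19 fell and 1 rose, beside 39.9%. The difference between pools was not tested for the list. Of 17 regulators of the 2-cell state tested, 8 fell and 1 rose, a share near the 56.6% of genes. Dppa2 and Dppa4, DNA-binding factors that act before the 2-cell genes in stem cells, fell by 2.51 (SE 0.44, edgeR adjusted p = 5.64e-06) and 2.71 (SE 0.65, edgeR adjusted p = 0.000456). Nr5a2, a nuclear receptor, fell by 1.93, and Lin28a, an RNA-binding protein, rose by 1.41. Of 18 maternal transcripts tested, 16 rose and 1 fell, beside the same 56.6%, with Gdf9, an oocyte growth factor, rising by 5.81 (SE 0.54, edgeR adjusted p = 3.8e-12).

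In TrimAway, none of 27 other 2-cell genes passed against IgG over all embryos. With the replicate block 6 of 27 fell and none rose, near the 25.8% of genes called there. Within replicate 3, 11 of 24 fell and none rose, beside 16.5% of genes (median -2.46, against -0.08 over all genes). Against uninjected embryos 2 of 27 passed, fewer than the 27.9% of genes, and both rose: Gm4027 by 3.00 (SE 0.93, edgeR adjusted p = 0.0158) and AA792892 by 1.73 (SE 0.35, edgeR adjusted p = 0.00113). Within replicate 1, 15 of 27 rose and none fell, beside 15.6% of genes, and within replicate 3, 9 of 22 fell and 1 rose, beside 26.7%. The difference between these pools was not tested for the list. Among regulators Morc3, a chromatin ATPase, fell against IgG by 1.01 (SE 0.30, edgeR adjusted p = 0.0492).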

How the data were processed

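Polyadenylated RNA of single 2-cell embryos was sequenced as the RNA part of scNMT-seq, per the labels' protocols. The authors deposited 2 tables of raw read counts per gene (whole numbers, not normalized). Trim Galore 0.6.5, cutadapt 2.3, HISAT2 2.1.0 and the build GRCm38 are credited to the submitters' processing notes. Counting rules, strand, duplicates, reads that match several places and the annotation release are not given in the sources used here. Low counts were more often odd than even (134662 table entries of 1, 30228 of 2, 84269 of 3 and 23199 of 4), so counting intervals can be too narrow. Lines of the 57 identifiers with several lines were summed (25965 lines, 25900 genes). No column lacked a sample.

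Libraries under 100000 counts were left out. CPM used TMM factors and a pseudocount of 1 on the log2 scale. Genes passing filterByExpr were tested with edgeR 4.0.16 in R 4.3.3 (robust quasi-likelihood F test, Benjamini-Hochberg over all genes, called at an adjusted p under 0.05), with DESeq2 1.42.0 as an alternative. The script was tested on simulated data. Detection was set at over 3 counts, the upper limit that 0 counts allow, and covers counting error only. No 2 libraries of a group were identical (lowest chi-square per degree of freedom 4.53).

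Replicate numbers pair groups because the labels make each number a pool, with 2 numbers shared per comparison. Deviations of same-numbered group means correlated at 0.54 for deletion and wild type, 0.592 for anti-SMARCA5 and IgG, 0.0798 for anti-SMARCA5 and uninjected, and 0.428 for IgG and uninjected. Sequences came from GENCODE M21 transcripts and RefSeq tables of GRCm38.p6. The 5 genes are named throughout. Of each list the 3 called genes with the largest change in each direction, and for each table the 5 genes most correlated with the mean of the 5, could be named. The genes and lists were chosen with earlier results of these data known. The alternatives were other scalings, DESeq2, no filter, other depth limits, the replicate block and leaving out each replicate number or the doubted libraries.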

Additional observations from a re-analysis of the deposited data

Results flagged for a closer look

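The effect of the antibody against SMARCA5, relative to uninjected embryos, differed between pools for each of the 5 genes by a test of the difference itself (edgeR, replicate 3 minus replicate 1). The log2 values were -5.17 for Zscan4d, -5.62 for Zscan4f, -3.00 for Tcstv1, -5.80 for Tcstv3 and -9.75 for Gm4340. The uninjected arm of replicate 3 held 5 embryos.

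Libraries left out of the comparisons for low depth held some counts of these genes above the 3 counts that wells without an embryo reached. The maternal deletion library of replicate 1 in well D08 held 43 counts of Zscan4d, 12 of Zscan4f, 26 of Tcstv1, 5 of Tcstv3 and 16 of Gm4340, and that of replicate 2 in well D05 held 4 of Zscan4d. Among IgG libraries of replicate 2, none of which was deep enough to be kept, well E01 held 16 counts of Zscan4d, 4 of Zscan4f, 5 of Tcstv1 and 12 of Gm4340. Well A01 held 7 counts of Tcstv1, well B01 held 4 of Zscan4f, and well C01 held 4 of Tcstv3.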

How the results depend on the processing

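Of 203 changes of single genes under another setting, 165 kept their direction and side of the threshold, 24 reversed, 9 lost a call and 5 gained one, and the cause was not tested. In the deletion comparison the count of genes called, 1, became 0 with the replicate block, 0 with at least 500000 counts per library, and 0 to 3 without 1 replicate number. Without 1 replicate number, changes ran from -0.63 to 0.98 for Zscan4d, -2.48 to 1.11 for Zscan4f and -2.64 to 1.07 for Gm4340. With at least 1 count per library, 1 of the 5 genes did not pass the filter there.

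Against IgG the count, 0, became 1 with DESeq2 and 1 with the replicate block, which turned Zscan4d to -0.47. Gm4340 became 0.0066 with total counts, 2.12 with DESeq2 and 2.05 without well A10, which also turned Zscan4f to 0.093 and Tcstv1 to 0.32. Without 1 replicate number, changes ran from -0.52 to 0.36 for Zscan4d, -0.96 to 0.092 for Zscan4f and -0.59 to 0.45 for Gm4340.

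Against uninjected embryos the count, 2, became 1 with DESeq2 size factors, 0 with total counts, 1 with no filter, 1 with the replicate block, 1 with at least 500000 counts and 0 to 4 without 1 replicate number. The changes then ran from -0.85 to 2.90 for Zscan4d, -0.84 to 3.93 for Zscan4f, -0.60 to 1.80 for Tcstv1, -1.55 to 1.47 for Tcstv3 and -2.15 to 4.99 for Gm4340. For IgG against uninjected they ran from -0.37 to 3.10 for Zscan4d, -0.96 to 4.97 for Zscan4f and -0.36 to 2.46 for Tcstv1. Gm4340 had -2.61 without replicate 1, did not pass the filter without replicate 3, and had -1.18 without well A10.

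The ratio of Tcstv3 to Tcstv1 for anti-SMARCA5 against uninjected lay between -2.17 and -0.78 without 1 replicate number and lost its call without replicate 3. In libraries thinned and counted at 0, which changes depth and limit together, the share of maternal deletion embryos without a gene minus that of wild type was 41.9 percentage points for Zscan4d and 44.2 for Zscan4f, both now called, and 20.8 for Tcstv3, which had the opposite sign as counted. With the limit alone at 0 counts none of the 5 was called.

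Among all genes, calls against IgG numbered 317 in the test used, 64 with total counts, 1029 with DESeq2, 3010 with no filter, 2691 with the replicate block, 150 with at least 500000 counts, 623 with at least 1 count, 665 without well A10 and 0 to 591 without 1 replicate number. Against uninjected embryos 1885 rose and 1114 fell, and 409 and 1874 with total counts. With no filter the calls rose from 4825 to 10416 in the deletion comparison, from 2999 to 6184 against uninjected embryos and from 0 to 881 for IgG against uninjected. Without replicate 1, anti-SMARCA5 against uninjected had 1 call. The replicate block changed no other call of the 5 genes than those named. Depth limits low genes most, since 0 counts allowed up to 18.6 CPM in the shallowest library.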
